A study of Mus musculus with 23 samples.

Results

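The 6 arrays of the intra-subspecific cross B6xBALB/C were compared with each other, replicates 1 to 3 against replicates 4 to 6, to describe how far pools of 1 genotype differ in juvenile testis. They are 6 of the 23 arrays of the series and were taken by the replicate number in the sample titles. Each array held total RNA from a pool of 4 testes of untreated (B6xBALB/C)F1 mice aged 14.5 days, so genotype, age, tissue and protocol were labelled alike in both sets. By the naming convention, the mother was B6 (a C57BL/6 strain) and the father BALB/C. The 3 arrays of the reciprocal cross BALB/CxB6 and the 3 of inbred B6, of the same age and pool size, served for comparison. The rest of the series, also of that age and pool size, were arrays of PWD, PWDxPWK, PWDxB6 and B6xPWD. They entered the fit, the means over all 23 arrays and, with BALB/CxB6 and B6, the ranges given for the other genotypes. The labels state that the tunica was removed and that spermatogenic populations were isolated, but give no litter, dissection day or scan date. Any such difference between replicates 1 to 3 and 4 to 6 cannot be told apart from the sets themselves. The labels also do not say that pools came from separate animals or litters, so p-values measure only spread between pools. That spread was estimated from all 23 arrays together, within genotypes and sets, and not from these 6 pools alone. Where a gene varied more in pools 4 to 6 than elsewhere, its SE understates their own spread. Below, pool 1 is replicate 1, and so on to pool 6.

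In mice the first spermatogenic wave runs nearly in step through the testis, so the age of a juvenile male largely sets which germ cells it holds. At the end of the second postnatal week the most advanced cells are spermatocytes in early to middle meiotic prophase, and pachytene genes are being switched on while spermatids are still to come. Sertoli cells, which nurse the germ cells inside the tubule, and Leydig, peritubular and vascular cells around it make up the somatic part. In RNA of a mixed preparation, fewer cells of a type and less RNA per cell cannot be told apart.

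Values are log2 levels as deposited. Of 19661 genes, the 14745 that passed a filter on dim signal were tested, and calls are genes whose limma p, adjusted by Benjamini-Hochberg, was under 0.05. The array medians of the 6 pools lay between 6.18 and 6.23. The filter left out only the dimmest 25% of genes, with a mean up to 5.12, so passing it does not by itself show expression. All 18 synapsis and cohesin genes and all 28 Sertoli genes on the array passed, although the label names spermatogenic cells. So did 9 of 10 Leydig genes, a share nearer to that of all genes. The median level of the listed genes over the 6 pools was 9.50 for synapsis and cohesin and 9.83 for Sertoli cells. For Leydig cells it was 6.60, closer to the array medians. Of 26 spermatid genes 13 passed. The adipocyte and the epididymis and rete testis lists were mostly dim or sparse, with 4 of 7 and 4 of 11 genes passing, and 2 of 4 red blood cell genes passed.

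Pools 1, 2 and 3 lay close together, pool 6 lay far from all others, and pool 5 resembled pools 1 and 2 more than the pools of its own set. Between pools 1 and 2 no gene (0 of 14745) differed by more than 1 log2 unit, and the other pairs among pools 1 to 3 had 7 and 11 such genes. Pool 5 differed by more than 1 log2 unit from pool 2 in 4 genes, from pool 1 in 6 and from pool 3 in 28. It differed from pool 4 in 78 genes and from pool 6 in 392. Pool 6 differed from pools 1, 2 and 3 in 427, 475 and 377 genes and from pool 4 in 145. In the other genotypes, pairs of arrays had between 2 and 77 such genes. All 5 pairs with pool 6, and the pairs of pool 4 with pools 1, 2 and 5, lay above that range.

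**Figure D1:**
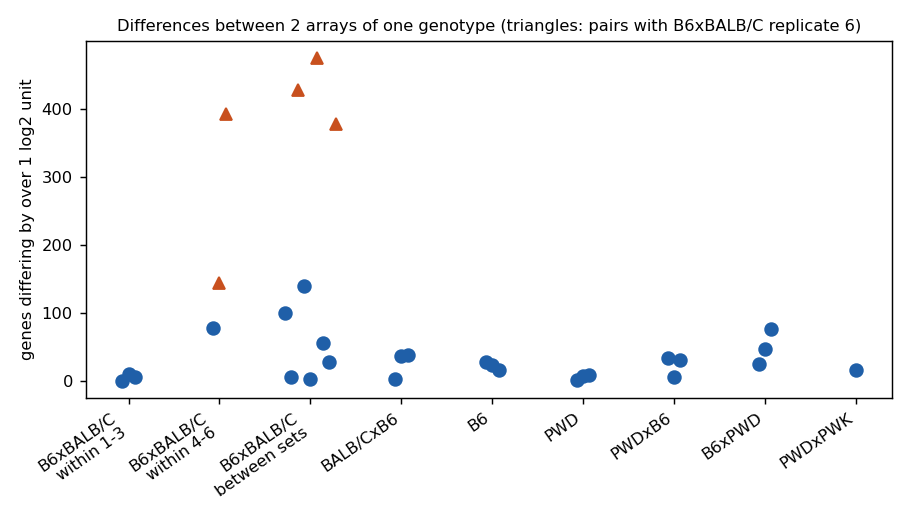
Number of genes (of 14745) that differ by more than 1 log2 unit between 2 arrays of the same genotype, 1 point for each pair, with B6xBALB/C split into pairs within replicates 1 to 3, within replicates 4 to 6 and between the sets. Pairs with pool 6 (triangles) reach 145 to 475 genes, while pairs within replicates 1 to 3 have at most 11.

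The first principal component of the 6 arrays held 64.2% of the variance, and its strongest weights were on germ cell genes. Its scores were -13.8, -18.0 and -9.84 for pools 1 to 3, 13.1 for pool 4, -7.32 for pool 5 and 35.8 for pool 6. The genes with the strongest weight at the end that is low in pool 6 included Adam5, Crisp2, Fabp9, Spata4, Gk2 and Ldhc, all known from spermatocytes or spermatids. The second component held 15.4% and placed pools 4 and 5 lowest (-9.91 and -13.6) and pool 3 highest (13.1). The median gene had an SD of 0.0929 log2 units within replicates 1 to 3 and 0.125 within replicates 4 to 6 (n = 3 each). Genes with an SD over 0.5 numbered 18 in the first set and 433 in the second.

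**Figure D2:**
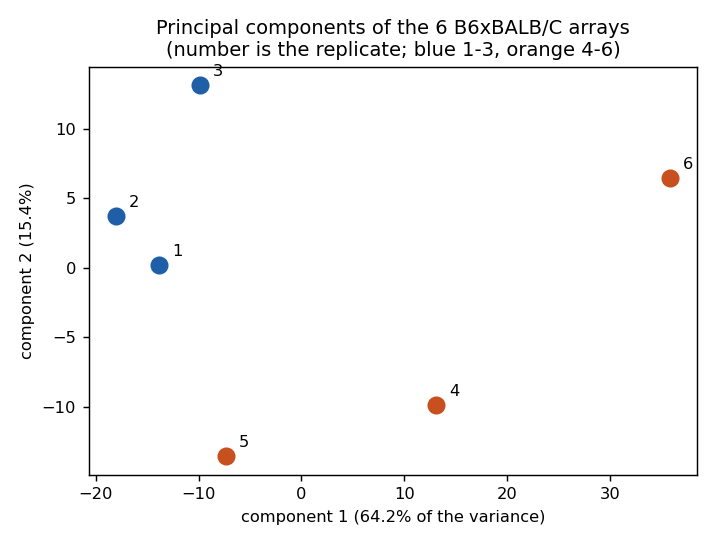
Scores of the 6 B6xBALB/C arrays on the first and second principal components of the 14745 tested genes, each point 1 pool with its replicate number. Pool 6 stands at 35.8 on the first component and pool 4 at 13.1, while pool 5, at -7.32, lies next to pools 1 to 3 on that axis and at the low end of the second.

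Between the sets, 193 genes passed the test. In replicates 4 to 6 relative to 1 to 3, 52 were higher (0.353% of the genes tested) and 141 lower (0.956%), with 3069 genes at an unadjusted p under 0.05. The median absolute difference of the called genes was 0.59 log2 units and the largest 1.85. In 190 of them the values of the 2 sets did not overlap, which a call made on these same values favours. Among all genes tested, 15.5% had all of pools 4 to 6 above all of pools 1 to 3, and 14.5% had all below. In 158 of the 193 called genes pool 5 was the one of its set nearest to the mean of pools 1 to 3, and in 148 pool 6 was the farthest. These 2 counts were not made over all genes. Among all genes tested, pool 6 was the lowest of the 6 pools in 24.2% and the highest in 26.8%.

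The number of calls depended on single pools. It was 0 in the limma fit without pool 1, 2, 3, 4 or 6, with 2602, 2095, 2560, 2287 and 1805 genes at an unadjusted p under 0.05. Without pool 5 it was 1365, with 375 higher and 990 lower of the 14745 tested. It was also 0 when only the 6 arrays were fitted, with 3488 genes at an unadjusted p under 0.05. Centring each array on its median autosomal gene gave 129 higher and 113 lower, and quantile normalization 107 and 150, so the split between the directions depended on scaling. For a single gene an exact permutation test of 3 pools against 3 cannot go below p = 0.1.

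Genes of pachytene spermatocytes formed the program that varied most. The mean level of 37 such genes, relative to their mean over all 23 arrays, was 0.89, 0.98 and 0.74 in pools 1 to 3, then 0.28 in pool 4, 0.89 in pool 5 and -0.64 in pool 6. Pool 6 was thus the lowest and pool 4 the next lowest, while pool 5 was level with pools 1 and 2, so the sets overlapped. The lowest value was in pool 6 for 32 of the 37 genes, against 24.2% of all genes tested. Of the 37, 3 fell in replicates 4 to 6 and 0 rose, beside 0.956% lower and 0.353% higher of all genes. The median difference was -0.59, beside 0.01 over all genes tested. A further comparison shows the width of this range: the 17 arrays of the other genotypes spanned -0.63 to 0.55, so that pool 6 lay below all 17 and pools 1, 2, 3 and 5 above all of them. The reciprocal BALB/CxB6 arrays lay between -0.30 and -0.20 and the B6 arrays between 0.03 and 0.40. Without pool 5, 23 of the 37 were called lower with a median of -0.91, beside 990 of all 14745 genes called lower in that fit. Without any other of the 6 pools 0 were called, and without pool 6 the median was -0.25.

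**Figure D3:**
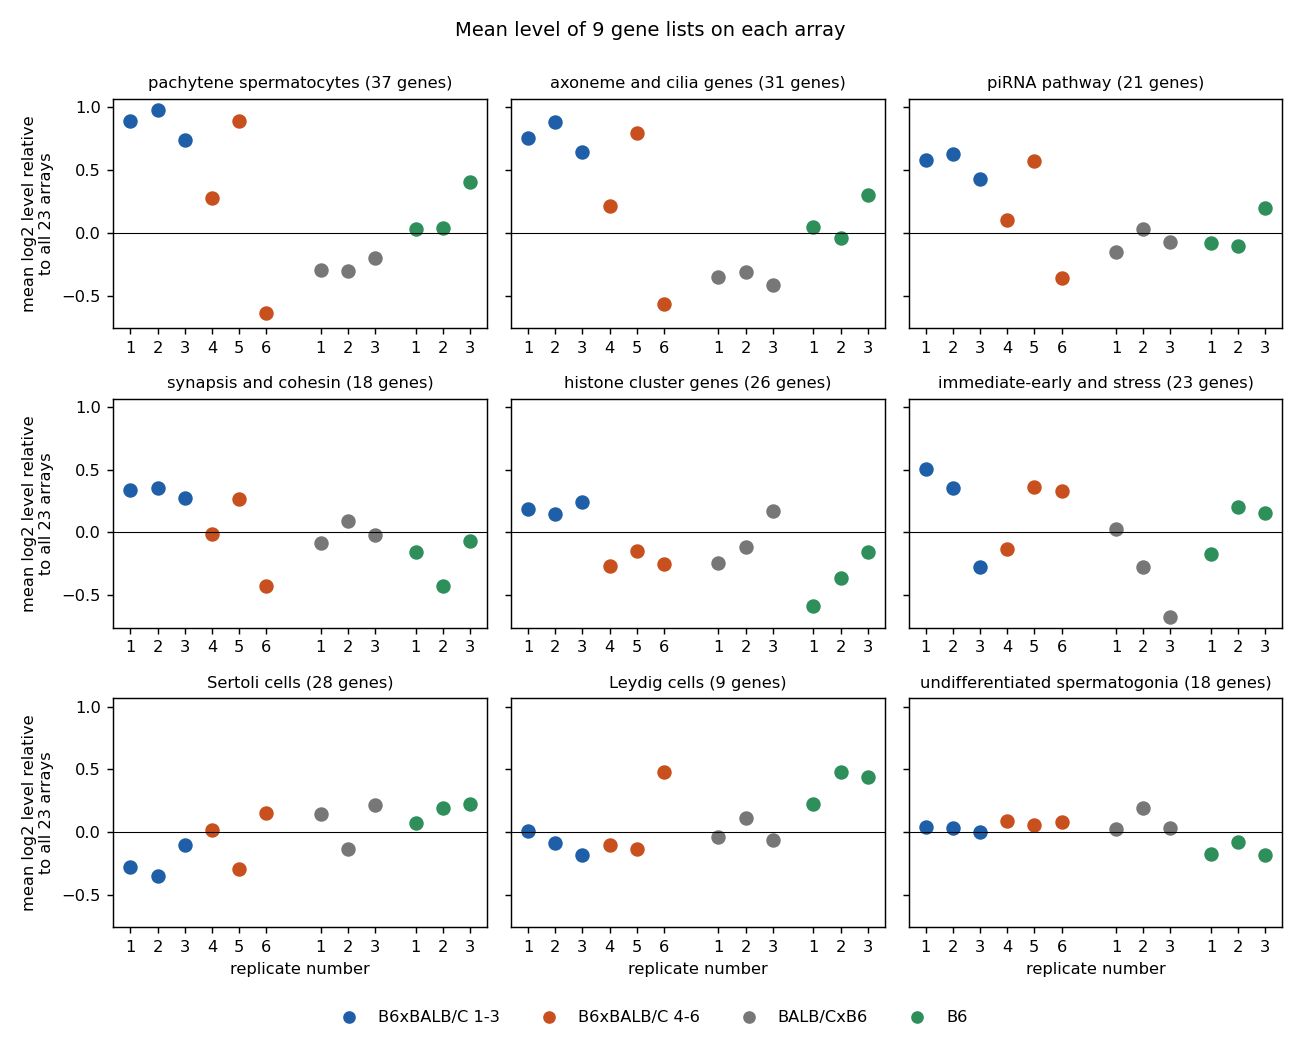
Mean log2 level of 9 gene lists on each array, relative to the mean of the same genes over all 23 arrays, with 1 point for each array of B6xBALB/C (replicates 1 to 3 and 4 to 6), BALB/CxB6 and B6. Pool 6 is lowest for the pachytene, axoneme, piRNA and synapsis lists and pool 5 lies with pools 1 to 3, whereas the histone list separates replicates 1 to 3 (0.15 to 0.24) from 4 to 6 (-0.27 to -0.15), and the immediate-early list is lowest in pools 3 and 4.

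Meig1, which is needed for the manchette of later spermatids, was measured at 8.86, 9.0 and 8.84 in pools 1 to 3 and at 7.24, 8.30 and 6.41 in pools 4 to 6. The sets did not overlap, and the difference of -1.59 (SE 0.34) passed the test (adjusted p = 0.0300). H1f6, the testis-specific linker histone H1t of spermatocytes, was at 9.55, 9.69 and 9.27 against 8.31, 9.24 and 7.52. It fell by 1.15 (SE 0.25, adjusted p = 0.0332), with pool 5 only just below pool 3. Tbpl1, a germ cell relative of the TATA-binding protein, was at 9.12, 9.30 and 9.15 against 8.69, 9.02 and 8.54 and fell by 0.44 (SE 0.11, adjusted p = 0.0498).

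The members with the widest ranges, Adam5, Crisp2 and Ldhc, did not pass the test, and pool 5 lay with pools 1 to 3 in each. Ldhc, the lactate dehydrogenase subunit of the male germ line, was at 9.92, 10.09 and 9.73 in pools 1 to 3, and at 8.80, 9.89 and 6.21 in pools 4 to 6. Its highest and lowest pools differed 14.7-fold, and the difference between the sets was -1.61 (adjusted p = 0.101). Adam5, a sperm surface protein of the ADAM family, was at 8.99, 9.30 and 9.06 and then at 7.48, 9.08 and 5.03, a 19.3-fold range. In both genes pool 5 lay inside the range of pools 1 to 3, pool 4 stood apart and pool 6 was far below.

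Piwil1, the PIWI protein that binds pachytene piRNAs, was at 10.22, 10.29 and 9.71 against 9.09, 10.05 and 6.89, a 10.5-fold range over the 6 pools. Clgn, an endoplasmic reticulum chaperone of spermatocytes and spermatids, was at 10.47, 10.57 and 10.31 against 9.55, 10.43 and 8.21. Hspa2, the heat shock protein of synaptonemal complexes, was at 9.91, 9.90 and 9.51 against 9.18, 9.70 and 8.07. None of the 3 passed the test (adjusted p = 0.0811 for Clgn and 0.0828 for Hspa2). In all 3 genes pool 5 lay inside the range of pools 1 to 3, and the order of pools 4, 5 and 6 was the same.

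Other members varied over a narrower range, or had pool 4 close to pools 1 to 3. Mybl1, the A-MYB transcription factor of early pachytene cells, was at 9.04, 9.11 and 9.03 against 8.95, 9.25 and 8.44. Its range of 0.81 was less than that of Piwil1 (3.40) or Ldhc (3.88). Ybx2, an RNA-binding protein that stores germ cell transcripts, was highest in pool 5 (10.06) and lowest in pool 6 (8.23), with pool 4 (9.46) inside the range of pools 1 to 3. Pools 5, 4 and 6 stood in descending order in both genes, as in the 3 before. Ccna1, the meiotic cyclin A1, ranged only from 5.20 to 5.72, near the filter's limit of 5.12. Pou5f2, a testis POU factor, ranged only from 6.03 to 6.12.

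**Figure D4:**
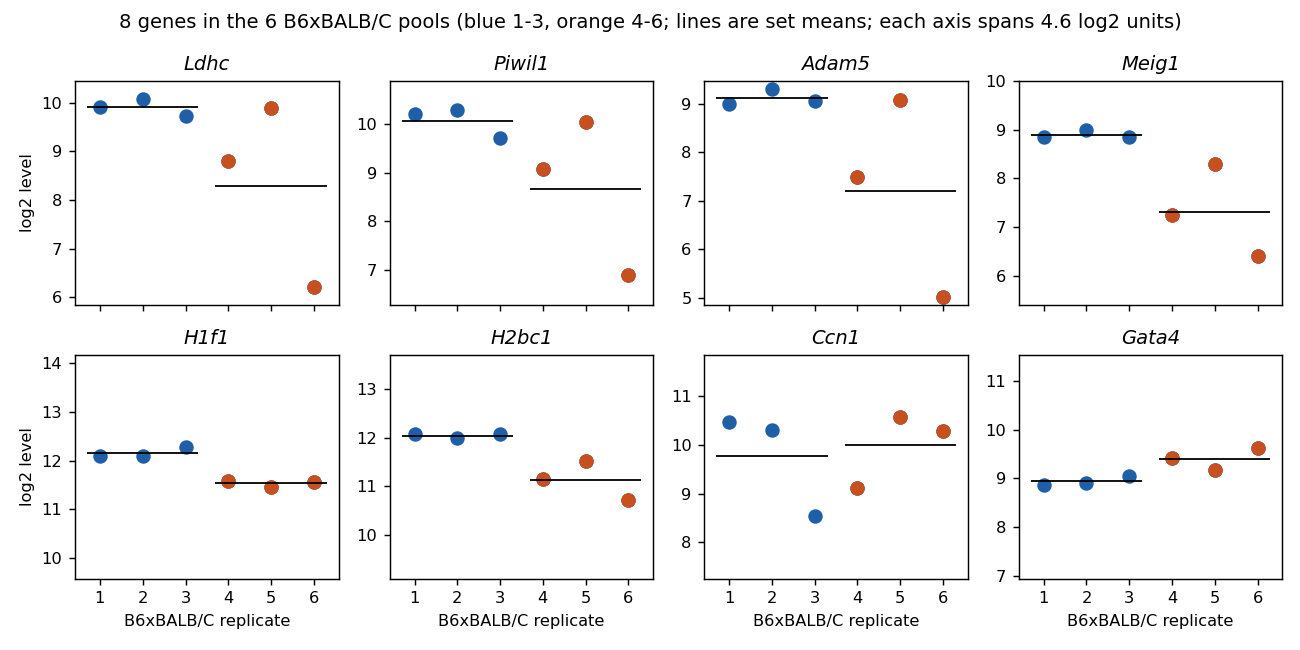
Log2 levels of 8 genes in the 6 B6xBALB/C pools, points for single pools (blue 1 to 3, orange 4 to 6) and lines for the mean of each set, all axes spanning the same number of log2 units. Ldhc, Piwil1 and Adam5 are low in pool 6, intermediate in pool 4 and high in pool 5, H1f1 and H2bc1 are lower in all of pools 4 to 6, Ccn1 is low in pools 3 and 4, and Gata4 is highest in pool 6.

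Axoneme and cilia genes, which are switched on ahead of flagellum assembly, ran in parallel with the pachytene list. Their mean over 31 genes was 0.76, 0.88 and 0.64 in pools 1 to 3 and 0.21, 0.79 and -0.57 in pools 4 to 6. The lowest value was in pool 6 for 28 of the 31. Of them 1 fell and 0 rose, beside 0.956% lower and 0.353% higher of all genes, with a median difference of -0.63. Without pool 5, 23 were called lower, beside 990 of all 14745 genes in that fit, and 0 without any other pool. The called member was Ift57, an intraflagellar transport protein, at 8.08, 8.04 and 7.96 against 7.28, 7.79 and 6.98 (difference -0.68, SE 0.15, adjusted p = 0.0386). Rsph1, a radial spoke protein, was at 9.91, 10.03 and 9.57 against 8.90, 9.53 and 7.30 and did not pass (adjusted p = 0.0614). The sets of both genes did not overlap, pool 5 being the nearest to pools 1 to 3.

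The piRNA pathway, which protects the germ line from transposons, showed the same order over a narrower range. Its 21 genes had means of 0.58, 0.63 and 0.43 in pools 1 to 3 and of 0.11, 0.57 and -0.36 in pools 4 to 6, with the lowest value in pool 6 for 19. Of them 2 fell and 0 rose, beside 0.956% lower and 0.353% higher of all genes. The median difference was -0.36 (-0.18 without pool 6). Without pool 5, 13 were called lower, beside 990 of all 14745 genes in that fit. Mael, a nuage protein, was at 10.56, 10.64 and 10.42 against 9.86, 10.27 and 9.41 (difference -0.70, SE 0.16, adjusted p = 0.0358). Henmt1, which methylates the ends of piRNAs, was at 7.96, 8.06 and 7.99 against 7.31, 7.70 and 7.06 (difference -0.65, SE 0.16, adjusted p = 0.0483). The sets did not overlap in either gene. Ddx4, the germ cell helicase VASA, was at 11.13, 11.20 and 11.01 against 10.57, 11.09 and 10.08, where the sets overlapped through pool 5 (adjusted p = 0.0784).

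Genes of the synaptonemal complex and meiotic cohesin, already active in leptotene and zygotene cells, differed less between pools. Their 18 genes had means of 0.34, 0.36 and 0.27 in pools 1 to 3 and of -0.01, 0.27 and -0.43 in pools 4 to 6. Of them 3 fell and 0 rose, beside 0.956% lower and 0.353% higher of all genes, with a median difference of -0.36. Without pool 5, 10 were called lower, beside 990 of all 14745 genes in that fit. Hormad2, a HORMA-domain protein of unsynapsed axes, was at 8.65, 8.67 and 8.63 against 7.81, 8.46 and 7.50 (difference -0.73, SE 0.17, adjusted p = 0.0440). Its relative Hormad1 was at 9.89, 9.88 and 9.46 against 9.02, 9.48 and 8.31 (difference -0.81, SE 0.20, adjusted p = 0.0479), with pool 5 just above pool 3. Tex12, a central element protein, was at 8.25, 8.23 and 7.97 against 7.51, 7.80 and 6.79 (difference -0.78, SE 0.20, adjusted p = 0.0498).

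Sycp1 and Sycp3, the transverse filament and a lateral element of the complex, ranged 2.43-fold and 2.08-fold over the 6 pools, both lowest in pool 6. Of 22 recombination genes 0 were called and 10 were lower at an unadjusted p under 0.05, with a median difference of -0.26. Without pool 5, 8 were called lower, beside 990 of all 14745 genes in that fit. Their list mean was 0.30, 0.32 and 0.21 in pools 1 to 3 and 0.06, 0.22 and -0.32 in pools 4 to 6. Hsf2bp, which works with BRCA2 in meiosis, had the smallest p (difference -0.60, adjusted p = 0.0628). Dmc1, the meiotic recombinase of early prophase, ranged only 1.33-fold. Meiob, a partner of Spata22 at recombination sites, was at 9.90, 9.93 and 9.70 against 9.15, 9.59 and 8.32 (adjusted p = 0.0784). Of 14 sex-body silencing factors 0 were called and 3 were lower at an unadjusted p under 0.05, with the smallest p for Rad1, a checkpoint clamp subunit (difference -0.41, adjusted p = 0.111).

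Lists of the stages before prophase varied little. For 18 genes of undifferentiated spermatogonia the list means of the 6 pools lay between 0.00 and 0.09, and 0 were called, with 1 higher, Foxo1 (difference 0.26, adjusted p = 0.140), and 1 lower, Id4 (-0.27, adjusted p = 0.234), at an unadjusted p under 0.05. For 15 genes of differentiating spermatogonia the means lay between -0.15 and 0.05, and 0 were called, with 1 lower at an unadjusted p under 0.05, Sohlh2 (-0.37, adjusted p = 0.145). Kit, the receptor that marks differentiating spermatogonia, was at 9.39, 9.39 and 9.57 against 9.62, 9.48 and 9.90, and Stra8, which opens meiosis, ranged 1.40-fold. The 13 spermatid genes tested had list means of 0.04, 0.04 and 0.01 in pools 1 to 3 and 0.08, 0.12 and -0.17 in pools 4 to 6. Pool 6 lay below all 17 arrays of the other genotypes, which spanned -0.16 to 0.10, but this list mean rested largely on 1 gene, Dkkl1. Relative to the mean of pools 1 to 3, Dkkl1 was at -2.71 in pool 6. The other members there lay between -0.65 (Spaca1) and 0.50 (Actl7a). Of the 13 genes, 4 were lowest and 3 highest in pool 6. The median range of a spermatid gene over the 6 pools was 0.47, beside 0.386 for all genes. Of the 13, 0 were called, with 1 higher and 2 lower at an unadjusted p under 0.05. Klhl10, needed for spermatid maturation, had the smallest p (difference 0.31, adjusted p = 0.125). The one with a wide range was Dkkl1, an acrosomal protein first made in spermatocytes, at 8.74, 8.86 and 8.67 against 7.84, 8.97 and 6.05. The protamine and transition protein genes on the list were either below the filter or near its limit.

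Histone cluster genes separated the sets in a different order of pools. The mean of 26 genes was 0.19, 0.15 and 0.24 in pools 1 to 3 and -0.27, -0.15 and -0.25 in pools 4 to 6, so that pool 5 here went with pools 4 and 6. Of the 26, 7 fell and 0 rose (H1f1, H2bc1, H2bc3, H2bu1-ps, H4f16, H1f6 and H4c6), beside 0.956% lower and 0.353% higher of all genes. In 18 all of pools 4 to 6 lay below all of pools 1 to 3, beside 14.5% of all genes. The median difference was -0.37. Left-out pools moved the median only between -0.34 and -0.43. The count of calls was 8 without pool 5, all lower, beside 990 of all 14745 genes in that fit, and 0 without any other. Copies of 1 histone class share much of their sequence, and probes may not tell them apart, so the values of single copies are uncertain.

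The gene with the smallest adjusted p of the whole comparison was H1f1, a linker histone (H1.1) abundant in spermatogonia and early spermatocytes. It was at 12.11, 12.10 and 12.28 in pools 1 to 3 and at 11.59, 11.46 and 11.55 in pools 4 to 6 (12.16 ± 0.10 and 11.54 ± 0.06, SD, n = 3 each). It fell by 0.63 (SE 0.09, adjusted p = 0.0131), with pool 5 the lowest of the 6. H2bc1, the testis-specific H2B of spermatogonia and spermatocytes, was at 12.07, 11.99 and 12.07 against 11.15, 11.53 and 10.73 (difference -0.91, SE 0.15, adjusted p = 0.0190). H2bc3 was at 8.19, 8.07 and 8.65 against 7.28, 7.46 and 6.86 (difference -1.10, SE 0.19, adjusted p = 0.0190), and H4c6, an H4 copy, at 9.12, 9.11 and 9.33 against 8.19, 7.95 and 8.46 (difference -0.99, SE 0.22, adjusted p = 0.0333). In all 4 genes the 3 pools of each set stayed apart from the other set, as in 190 of the 193 called genes.

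Some histone genes did not separate the sets. H1f2 was at 7.42, 7.60 and 6.45 against 6.71, 7.92 and 8.55, and H1f5 at 9.20, 9.15 and 8.37 against 7.97, 8.88 and 8.92. Both were lowest in pools 3 and 4, with overlap of the sets. H2bc21 was highest in pool 6 at 5.98, beside 5.26 to 5.47 in the other pools. H2ac1, the testis-specific H2A that pairs with H2bc1, was at 12.91, 12.94 and 12.88 against 12.73, 12.84 and 12.51. Its sets did not overlap, with pools 4 to 6 below as in the called histone genes, but it did not pass (difference -0.22, adjusted p = 0.247).

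**Figure D5:**
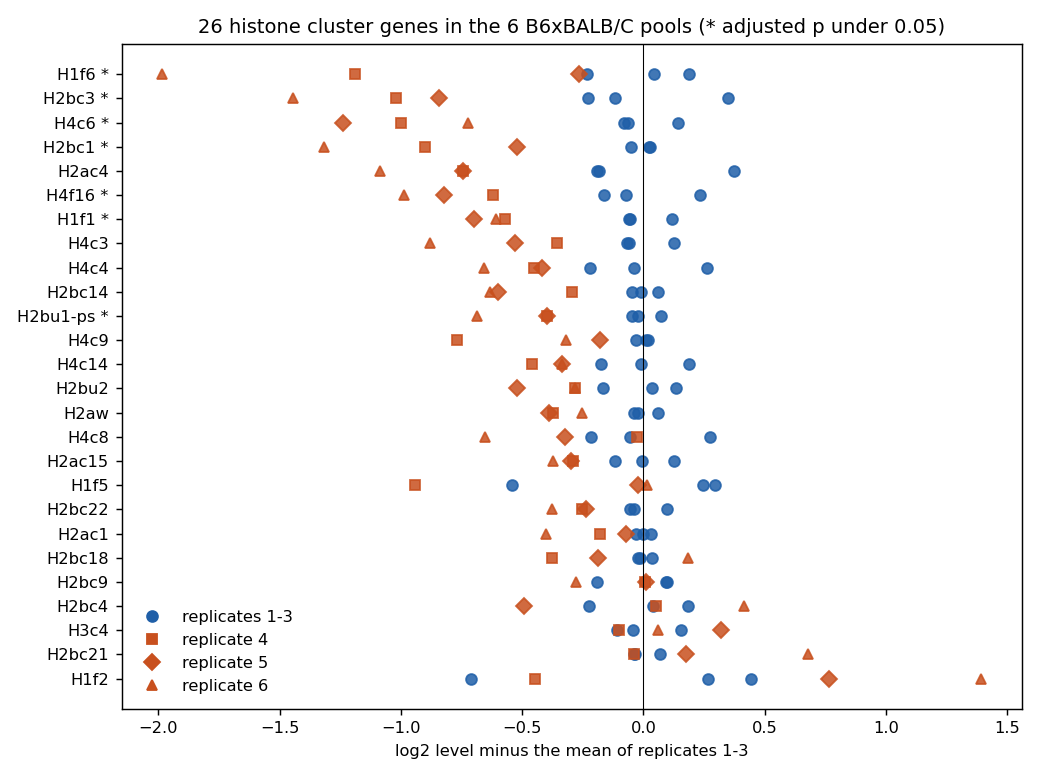
Log2 level of each of 26 histone cluster genes in the 6 pools, minus the gene's mean over replicates 1 to 3, ordered by the difference between the sets, with a star at the 7 genes called. In 18 genes all orange points (pools 4 to 6) lie left of all blue points, and H1f2 has the widest spread at the other end.

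The promoters of the called histone genes are shown because these genes were all called lower, as the 150 bases before each RefSeq start in GRCm38.p6, on the strand of the gene. Their pool orders differed. H4c6 was farthest from the mean of pools 1 to 3 in pool 5 (-1.24) and nearest in pool 6 (-0.72). H1f6 was farthest in pool 6 (-1.98) and nearest in pool 5 (-0.27). H2bu1-ps had no entry in that table and is named only. Capitals mark CCAAT on either strand (ATTGG on the other), the octamer ATTTGCAT and TATAAA, each also on either strand, motifs long known from histone promoters and chosen after the values were seen.
H1f1, chr13:23763518-23763667, plus strand: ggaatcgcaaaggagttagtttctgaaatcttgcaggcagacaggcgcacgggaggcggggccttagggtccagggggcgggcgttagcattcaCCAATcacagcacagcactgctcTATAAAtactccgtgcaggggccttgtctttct
H2bc1, chr13:23934157-23934306, minus strand: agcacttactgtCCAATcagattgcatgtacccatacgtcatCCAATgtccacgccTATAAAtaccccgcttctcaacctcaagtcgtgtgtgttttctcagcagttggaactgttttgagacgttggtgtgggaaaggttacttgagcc
H2bc3, chr13:23746584-23746733, plus strand: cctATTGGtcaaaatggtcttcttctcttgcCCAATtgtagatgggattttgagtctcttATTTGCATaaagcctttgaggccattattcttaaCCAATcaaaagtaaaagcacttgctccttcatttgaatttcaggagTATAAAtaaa
H4f16, chr6:136804432-136804581, minus strand: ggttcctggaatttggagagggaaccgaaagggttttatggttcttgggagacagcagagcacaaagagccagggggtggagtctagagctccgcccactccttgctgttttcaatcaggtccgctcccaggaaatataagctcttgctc
H1f6, chr13:23695661-23695810, plus strand: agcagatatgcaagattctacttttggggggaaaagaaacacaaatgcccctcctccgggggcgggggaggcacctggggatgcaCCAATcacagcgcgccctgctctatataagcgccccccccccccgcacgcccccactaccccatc
H4c6, chr13:23551669-23551818, minus strand: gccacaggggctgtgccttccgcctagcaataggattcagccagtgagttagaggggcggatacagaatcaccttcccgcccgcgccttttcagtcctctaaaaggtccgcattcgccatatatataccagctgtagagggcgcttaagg
Among 22 histone cluster promoters that matched, CCAAT occurred in 18, beside 24.5% of all 32851 promoters of the same length. ATTTGCAT occurred in 6 of 22, beside 0.998%, and TATAAA in 10 of 22, beside 7.57%. The A-MYB core AACNG, on either strand, occurred in 11 of 22, beside 55.1%. Of the 6 promoters shown, 4 hold CCAAT, 1 the octamer, 3 TATAAA and 2 AACNG. These are matches of letters in a window and not measured binding.

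Other genes divided the sets as H1f1 did, with pool 5 on the side of pools 4 and 6. Among those that rose, Wdr83os, a small protein of the endoplasmic reticulum, was at 7.80, 8.05 and 7.85 against 8.83, 8.85 and 8.61 (difference 0.87, SE 0.15, adjusted p = 0.0192). Tmbim6, an endoplasmic reticulum protein that protects from cell death, was at 10.78, 10.84 and 11.02 against 11.62, 11.45 and 11.69 (difference 0.71, SE 0.17, adjusted p = 0.0447). Zfp579, a zinc finger gene, was at 6.33, 6.54 and 6.60 against 7.16, 7.0 and 7.29 (difference 0.67, SE 0.11, adjusted p = 0.0190). These 3 genes were named by a rule that asked for sets without overlap, so the absence of overlap is not a separate result.

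Atp1b2, a beta subunit of the sodium pump, was at 10.37, 10.25 and 10.31 against 11.00, 10.77 and 11.43 (difference 0.76, SE 0.16, adjusted p = 0.0297). Rnf208, a ring finger gene, was at 6.85, 6.70 and 6.75 against 7.70, 7.28 and 7.72 (difference 0.80, SE 0.14, adjusted p = 0.0190). Both were nearest to pools 1 to 3 in pool 5. The other genes among the 15 largest rises were Gm11564, Nrbp2, Efhd2, Shisa4, Cxcr1, Rgma and Pth1r, with differences of 0.60 to 0.74, besides Olfr767, Rplp2 and Col1a2.

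Ribosomal protein genes gave calls in both directions. Of 32 genes named as ribosomal proteins, 1 rose and 2 fell, beside 0.353% and 0.956% of all genes, with a median difference of -0.06. Rplp2, a stalk protein of the large subunit, was at 5.61, 5.53 and 5.35 against 6.19, 6.16 and 6.31 (difference 0.72, SE 0.13, adjusted p = 0.0212). Rpl30 was at 8.54, 8.72 and 8.55 against 7.99, 7.87 and 7.73 (difference -0.74, SE 0.14, adjusted p = 0.0212), and Rpl8 at 11.33, 11.32 and 11.35 against 10.78, 10.83 and 10.57 (difference -0.61, SE 0.14, adjusted p = 0.0436). Each set was tight in all 3 genes and the sets did not overlap. Ribosomal protein genes have many processed copies in the genome, so these probe values are uncertain.

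Of 92 respiratory chain genes 1 fell and 0 rose, a count near the shares of all genes called (0.956% lower and 0.353% higher). It was Atp5j, a coupling factor of the ATP synthase, at 10.41, 10.50 and 10.34 against 9.93, 9.98 and 9.79 (difference -0.51, SE 0.12, adjusted p = 0.0442). In 26 of the 92 all of pools 4 to 6 lay below all of pools 1 to 3, beside 14.5% of all genes. The list means were 0.02, 0.04 and 0.01 in pools 1 to 3, 0.01 and -0.01 in pools 4 and 5, and -0.23 in pool 6. Cox7b2, a germ cell form of a cytochrome oxidase subunit that is also on the pachytene list, was at 7.96, 8.12 and 7.52 against 7.0, 7.42 and 5.98 (adjusted p = 0.0570).

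The other large falls were in genes with the pool order of the pachytene list. Ube2d2b, a testis copy of a ubiquitin-conjugating enzyme, had the largest difference of the called genes, at 7.70, 7.68 and 7.29 against 5.61, 7.01 and 4.48 (difference -1.85, SE 0.40, adjusted p = 0.0308). Armc3, an armadillo-repeat gene expressed in testis, was at 7.35, 7.24 and 7.35 against 5.81, 7.11 and 4.77 (difference -1.42, SE 0.33, adjusted p = 0.0436). Fank1, a spermatocyte nuclear protein, was at 8.22, 8.25 and 8.0 against 7.12, 7.86 and 5.80 (difference -1.23, SE 0.31, adjusted p = 0.0498). In all 3, pool 5 was the nearest of its set to pools 1 to 3 and pool 6 the farthest. Slc22a16, Tmem232, Ppp1r36, Sephs2, Lrriq3, Ccdc152, Gm11992 and 4930465K10Rik fell by 0.95 to 1.12.

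Sertoli cell genes were highest in pool 6, the pool lowest in pachytene genes. The mean of 28 genes was -0.28, -0.35 and -0.11 in pools 1 to 3 and 0.02, -0.30 and 0.16 in pools 4 to 6, a span of 0.51 log2 units beside 1.62 for the pachytene list. The highest value was in pool 6 for 22 of the 28, beside 26.8% of all genes, and in pool 4 for 5. The lowest was in pool 2 or pool 5 for 11 each. Of the 28, 1 rose and 0 fell, beside 0.353% higher and 0.956% lower of all genes. For 24 the difference was above 0, beside 52.8% of all genes, and 8 had all of pools 4 to 6 above all of pools 1 to 3, beside 15.5%. The median difference was 0.18 (0.10 without pool 6, 0.30 without pool 5). With pool 5 left out 8 were called higher, beside 375 of all 14745 genes in that fit, and 0 without any other pool. The part that the change in germ cell genes has in these values was not tested.

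Gata4, a transcription factor of testicular somatic cells, was at 8.86, 8.91 and 9.06 against 9.41, 9.17 and 9.62 and rose by 0.46 (SE 0.12, adjusted p = 0.0498). Sox9, a transcription factor of Sertoli cells, was at 8.87, 8.92 and 9.20 against 9.50, 9.26 and 9.61 (difference 0.46, adjusted p = 0.0618). Wt1, another Sertoli transcription factor, was at 10.14, 10.12 and 10.15 against 10.60, 10.27 and 10.77 (adjusted p = 0.0775). In all 3 genes the sets did not overlap and pool 6 was highest. Secreted products gave differences of like size in some cases, none of which passed the test. Cst9, a cystatin-related protein, was at 10.46, 10.26 and 10.70 against 11.07, 10.62 and 11.00 (difference 0.43, adjusted p = 0.194). Shbg, a steroid-binding globulin, had a difference of 0.29 (adjusted p = 0.233), the inhibin subunits Inha and Inhbb of 0.22 and 0.19, and Amh, the anti-Müllerian hormone, of 0.04. The 4 members with a difference below 0 were Aard, Ctsl, Clu and Vim, at -0.08, -0.08, -0.06 and -0.05.

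The Leydig cell list mean was highest in pool 6. The mean of 9 genes was 0.01, -0.09 and -0.18 in pools 1 to 3, -0.10 and -0.14 in pools 4 and 5, and 0.48 in pool 6. The highest value was in pool 6 for 7 of the 9 and in pool 5 for the other two, Hsd3b6 and Fdx1. Of them 0 were called, and without pool 5, 2 were called higher, beside 375 of all 14745 genes in that fit. With all pools, 2 were higher at an unadjusted p under 0.05. Both genes at that level were high in pool 4 as well as in pool 6. Nr5a1, the steroidogenic factor SF-1 that Sertoli cells also express, was at 8.51, 8.55 and 8.72 against 9.07, 8.69 and 9.12 (difference 0.36, adjusted p = 0.0837). Scarb1, a lipoprotein receptor, was at 9.98, 9.91 and 10.13 in pools 1 to 3 and at 10.43 and 10.72 in pools 4 and 6 (difference between the sets, pool 5 included, 0.38, adjusted p = 0.157). In both genes pool 5 lay inside the range of pools 1 to 3. Cyp17a1, the enzyme that leads to androgens, was at 6.44, 5.47 and 5.35 against 5.21, 5.08 and 6.94, a 3.61-fold range with pool 1 the next highest. Star, which brings cholesterol into mitochondria, was at 6.66, 6.59 and 6.66 against 6.55, 6.21 and 7.11, and Cyp11a1, the first enzyme of steroid synthesis, at 5.86, 5.69 and 5.16 against 5.57, 5.62 and 6.39. Pool 6 was the highest in these 3 steroid pathway genes, whose other pools lay in different orders.

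Peritubular genes (13) were lower in pools 3 and 4 (list means of -0.16 each) than in pools 1, 2, 5 and 6 (0.22, 0.19, 0.11 and 0.01). Acta2, the smooth muscle actin of these cells, was at 11.90, 11.84 and 11.39 against 11.44, 11.76 and 11.71. Of these 13 genes 0 were called and 1 was lower at an unadjusted p under 0.05, Cnn1, a calponin of smooth muscle (difference -0.31, adjusted p = 0.213).

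The list means of 19 stroma and matrix genes were 0.01, -0.05 and -0.23 in pools 1 to 3 and -0.19, 0.04 and 0.20 in pools 4 to 6. The highest value was in pool 6 for 11 of the 19, and the lowest in pool 3 for 9 and in pool 4 for 6. Of the 19 stroma and matrix genes 1 rose and 0 fell, beside 0.353% higher and 0.956% lower of all genes. The 1 gene was the collagen gene Col1a2, at 9.82, 9.70 and 9.44 against 9.98, 10.40 and 10.49 (difference 0.64, SE 0.16, adjusted p = 0.0498). Its partner chain Col1a1 was at 9.52, 9.44 and 9.20 against 9.64, 9.91 and 10.06 (adjusted p = 0.125). The sets did not overlap in either gene. Dcn, the proteoglycan decorin, was at 9.01, 9.11 and 8.53 against 8.02, 8.80 and 8.84 (adjusted p = 0.409), and Pdgfra, a growth factor receptor of stromal cells, at 8.91, 8.97 and 8.62 against 8.36, 8.96 and 9.34 (adjusted p = 0.922). Both were lowest in pool 4 and next lowest in pool 3, with the sets overlapping.

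Of 14 endothelial genes 0 were called and 1 was lower at an unadjusted p under 0.05, Emcn (-0.45, adjusted p = 0.161). Of 13 macrophage and MHC class II genes 0 were called, with 2 higher and 1 lower at that level, the smallest p being for Tyrobp (0.30, adjusted p = 0.135). Of the red blood cell genes tested, Slc4a1 and Alas2, 0 were called and 2 were higher at that level. The adipocyte genes gave 0 of 4 called, with 0 at that level (smallest p for Retn), and the epididymis and rete testis genes 0 of 4, with 1 lower, Aqp9.

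Immediate-early and stress genes, which respond within minutes to handling, split the pools across the sets. The mean of 23 genes was 0.50 and 0.36 in pools 1 and 2, -0.27 in pool 3, -0.13 in pool 4 and 0.37 and 0.33 in pools 5 and 6. The lowest value was in pool 3 for 14 genes and in pool 4 for 8. Ccn1, a matricellular immediate-early gene, was at 10.47, 10.30 and 8.53 against 9.13, 10.57 and 10.29, a 4.09-fold range. Nr4a1, an orphan nuclear receptor, was at 9.76, 9.81 and 8.11 against 8.70, 10.03 and 9.71, and Zfp36, which destabilizes cytokine mRNA, at 9.57, 9.39 and 8.32 against 8.31, 9.48 and 9.25. The 2 low pools are 1 of each set. Of the 23 genes 0 were called and 1 was lower at an unadjusted p under 0.05, Gadd45b (-0.45, adjusted p = 0.158), with a median difference of -0.01, which was 0.01 after quantile normalization and 0.04 after centring.

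In the deposited values, dimmer genes leaned towards higher values in pools 4 to 6. When all 19661 genes were cut into 4 equal classes by mean brightness, the median difference was 0.08 in each of the 2 dimmer classes and -0.02 in each of the 2 brighter ones. The brighter classes turned to 0.03 and 0.01 after quantile normalization and to 0.01 and 0.00 after centring, with 0.03 and 0.04, and 0.10 in both, for the dimmer ones, so after quantile normalization the classes hardly differed. The dimmest class is the one left out of the test. In the second dimmest 20.9% of genes had all of pools 4 to 6 above all of pools 1 to 3 and 6.21% all below. In the brightest class it was 13.9% and 20.2%. Olfactory and vomeronasal receptor genes, most of which are silent in testis, passed the filter in 83 of 1184 cases. Of the 83, 2 rose and 0 fell, beside 0.353% higher and 0.956% lower of all genes. In 39 all of pools 4 to 6 lay above all of pools 1 to 3, beside 15.5% of all genes. Olfr767 was at 7.35, 7.23 and 6.81 against 8.45, 8.22 and 8.30 (difference 1.19, SE 0.29, adjusted p = 0.0479) and Olfr458 at 5.19, 5.06 and 5.18 against 5.55, 5.60 and 5.72 (difference 0.48, SE 0.12, adjusted p = 0.0498).

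Of 163 small noncoding RNA genes 1 rose and 1 fell, beside 0.353% and 0.956% of all genes. In 49 all of pools 4 to 6 lay above all of pools 1 to 3 and in 18 all below, beside 15.5% and 14.5%. Mir155, the host locus of an immune microRNA, was at 5.11, 4.93 and 4.63 against 5.49, 5.38 and 5.51 (difference 0.57, SE 0.12, adjusted p = 0.0288). Snord49b, a small nucleolar RNA, was at 8.35, 8.36 and 8.28 against 7.21, 7.51 and 7.45 (difference -0.94, SE 0.23, adjusted p = 0.0493). The whole transcript arrays are not made to measure such short RNAs. The part that dim signal has in these values was not tested.

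For sex-linked, imprinted, cell cycle and interferon genes the counts stand beside 0.353% of all genes called higher and 0.956% called lower. At these shares, short lists would hold few calls or none. Of the 193 called genes 4 were on the X (3 higher, 1 lower, of 474 tested there) and 0 on the Y. The 18 X-linked germ cell genes gave 0 calls, with 2 lower at an unadjusted p under 0.05, and the smallest p for Magea3 (difference -0.71, adjusted p = 0.0553). The 8 Y-linked genes gave 0 calls with 0 at that level. They were Sry, Eif2s3y, Uty, Uba1y, Kdm5d, Usp9y, Zfy1 and Zfy2, with differences between -0.14 and 0.27. Of 19 imprinted genes 0 were called and 4 were higher at that level. Peg10, a paternally expressed retroelement gene, was at 9.79, 9.66 and 9.96 against 10.60, 10.03 and 10.47 (adjusted p = 0.0572). Of 26 cell division genes 0 were called and 3 were lower at that level, Mcm5, a replication helicase subunit, having the smallest p (difference -0.31, adjusted p = 0.109), and of 6 control genes 0 were called and 2 were lower. Of 22 interferon genes 1 fell, Gbp3, a guanylate-binding protein, at 7.17, 7.08 and 6.95 against 6.44, 6.64 and 6.45 (difference -0.56, SE 0.14, adjusted p = 0.0498).

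Of 9 genes known to differ between inbred strains 0 were called, and 1 was lower at an unadjusted p under 0.05, Pisd (-0.32, adjusted p = 0.139). Nnt, which is deleted in part in some B6 lines, was at 7.65, 7.73 and 7.86 against 7.83, 7.92 and 8.10 (difference 0.20, adjusted p = 0.315). B2m, whose alleles differ between B6 and BALB/C, was at 9.51, 9.35 and 9.51 against 9.01, 8.95 and 9.30 (adjusted p = 0.0795), while the B6 arrays lay at 9.92 to 10.21. Cd74, the invariant chain of MHC class II, lay between 6.55 and 7.42 in the 6 pools and between 5.11 and 5.59 in B6. In both genes all 6 pools lay apart from B6 on the same side as the BALB/CxB6 arrays, which were at 9.22 to 9.54 for B2m and at 7.13 to 7.42 for Cd74. These genes were picked for this check after their values were seen.

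Which pools stood for the genotype changed the comparisons with other genotypes. BALB/CxB6 against replicates 1 to 3 gave 1078 called genes (7.31% of those tested), 295 higher and 783 lower in BALB/CxB6. Against replicates 4 to 6 it gave 3 (0.0203%), with 1559 at an unadjusted p under 0.05, and against all 6 it gave 482 (3.27%). B6 against replicates 1 to 3 gave 2423 (16.4%), 1037 higher and 1386 lower, and against replicates 4 to 6 it gave 62 (0.42%), 40 higher and 22 lower. These comparisons share their BALB/CxB6 or B6 arrays. Without pool 6, BALB/CxB6 against replicates 4 and 5 gave 374, and B6 against them 232. Against all 6 pools, BALB/CxB6 gave 952 without pool 6 and 3 without its own replicate 3. Leaving out pool 1 or pool 2 lowered the count against replicates 1 to 3 to 549 and 463 for BALB/CxB6, and to 1154 and 929 for B6.

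Single genes show the same dependence. Ldhc was at 7.17 to 7.68 in the 3 BALB/CxB6 arrays and at 8.30 to 9.36 in the B6 arrays, so that pools 1, 2, 3 and 5 lay above both, pool 4 lay within B6, and pool 6 lay below both. Meig1 was at 6.60 to 7.45 in BALB/CxB6 and at 6.86 to 7.61 in B6, both below pools 1, 2, 3 and 5, around pool 4 and above pool 6. H1f1 was at 11.76 to 11.94 in BALB/CxB6, between the sets, and at 11.09 to 11.33 in B6, below all 6 pools. Gata4 was at 9.17 to 9.34 in BALB/CxB6 and at 9.42 to 9.55 in B6, both above pools 1 to 3 and below pool 6. For Ldhc, Meig1 and Gata4 the 6 pools of 1 genotype spanned the whole range of the BALB/CxB6 and B6 arrays, and for H1f1 they did not.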

How the data were processed

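Affymetrix Mouse Gene 1.0 ST arrays were made from pools of 4 testes, per the labels. The deposited values are log2 levels of 25690 probe sets on 23 arrays. How the authors corrected and normalized them was not given in the sources used here, and the log base was read from the range of the values, 1.17 to 13.96. No scanner files were used here, so background could not be judged by probe.

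Names came from the platform annotation, in which 20777 probe sets had 1 gene symbol, 232 several and 4681 none. Entrez IDs matched the GRCm38.p6 gene table for 20696. For 564 genes with several probe sets the brightest was used. The dimmest 25% of genes (mean log2 up to 5.12) were left out.

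With R 4.3.3 and limma 3.58.1, means of 6 genotypes and of the 2 B6xBALB/C sets were fitted to the 23 arrays together, with 15 residual degrees of freedom and eBayes variances without trend. The fit was tested on simulated data. The naming rule took the 15 largest called rises and the 15 largest called falls without overlap, up to 4 members of each of 31 lists with the smallest p, Nnt, the Y-linked genes and the 5 genes with the widest gap of 1 pool. Of each list the text names at least the member with the smallest p, and not always all 4. Other members of the lists were chosen as examples after their values were seen. Members, lists and the rule were chosen with earlier results of these data known, and lists are described without set tests. List members that 2 lists hold count in both. The gene lists include names given by prefix, so Rps19bp1 is counted among 32 ribosomal protein genes. Promoters came from RefSeq. The alternatives were other filters, scalings, variances, weights and sets of arrays, and each array left out. The number of arrays limits the precision. Plots were made in matplotlib 3.10.9 under Python 3.11.15.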

Additional observations from a re-analysis of the deposited data

Results flagged for a closer look

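Among the 6 pools, 1 value stood apart by its gap to the nearest other pool, relative to the whole range, beyond Dixon's limit, in 2 of 31 list means and 9 of 155 named genes. Chance gives about 1 in 20 such groups, and the last 5 genes of the naming rule were picked for a wide gap. The Leydig cell list was highest in pool 6, with a mean of 0.476. The respiratory chain list was lowest in pool 6, with a mean of -0.231.

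Ccnd2, a cyclin of dividing spermatogonia, was highest in pool 6 at 9.98. Topbp1, a checkpoint protein of the sex body, was lowest in pool 6 at 9.62. Magea6, an X-linked germ cell gene with near-identical copies, was lowest in pool 6 at 4.78. Entpd4, a gene with copies that differ between strains, was lowest in pool 6 at 8.58. The Y-linked demethylase gene Uty was lowest in pool 1 at 7.49. Fabp9, the testis fatty acid-binding protein, was lowest in pool 6 at 6.97, beside 9.77 to 11.10 in the other pools. Ldhc at 6.21, Ptchd3 at 6.08 and 1700006A11Rik at 5.82 were also lowest in pool 6.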

How the results depend on the processing

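The comparison of replicates 4 to 6 with 1 to 3 gave 193 calls, and 93 with no filter on low values, 308 with the dimmer 50% of genes left out, 291 with trended variances, 6277 with array weights (weight 6.61 for pool 4), 2 with only B6, B6xBALB/C and BALB/CxB6 fitted and 0 with only the 6 arrays. BALB/CxB6 against replicates 4 to 6 gave 3, and 0 with no filter, quantile normalization, centring or either smaller fit, 1 with trended variances, robust or not, and 632 with array weights. BALB/CxB6 against replicates 1 to 3 gave 2958 with array weights. Against all 6 pools it gave 224 with the dimmer 50% of genes left out, 1195 with array weights, 3 with the 3 genotypes and 1 with only the groups compared. B6 against replicates 4 to 6 gave 1322 with array weights, 41 with the 3 genotypes and 8 with only the groups compared. With 1 array left out in turn, the counts ranged from 0 to 1365 for the 2 sets, from 463 to 1034 for BALB/CxB6 against replicates 1 to 3, from 0 to 374 against 4 to 6 and from 3 to 952 against all 6, and from 929 to 2469 for B6 against replicates 1 to 3 and from 24 to 232 against 4 to 6. The cause was not tested.

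Over the alternatives, called named genes lost the call in 376 of 754 cases and changed direction in 0. With no filter, quantile normalization or centring, 86 of 93 list medians moved by less than the spread between pools. With 1 pool left out the pachytene median moved between -0.91 and -0.25. No paired analysis was possible because the 2 sets share no replicate numbers. For arrays numbered 1 to 3, same-numbered arrays did not deviate together in every pair (correlations from -0.07 to 0.33). The replicate block gave 1311 calls for BALB/CxB6 and 2796 for B6 against replicates 1 to 3.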
